A study of Mus musculus with 8 samples.

Results

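A set of 44 genes that encode structural parts of the extracellular matrix was followed in cancer cells sorted from mouse prostate tumors with or without a knockout of *Arid1a*, a gene of the SWI/SNF complex, which remodels chromatin. The genes were taken by name from matrix families and not by their measured values, and all 44 were found among the 39089 genes of the count tables. They comprised fibronectin, 18 collagens, 8 laminin chains, 4 genes of the group of nidogens, perlecan and agrin, 6 matricellular genes, 3 microfibril and elastic fibre genes, 2 lysyl oxidases and 2 proteoglycans. The tumors were grown from Myc-CaP, a line of mouse prostate cancer cells that overexpress *Myc*. The cells carried either the empty lentiviral CRISPR vector (called WT here) or a guide RNA against *Arid1a* (KO), so each genotype is a transduced cell line rather than an animal strain. Both were grown under the skin of 6-week-old male FVB mice, which keep their own immune system, stroma and vessels. From day 16 the mice received JSH-23, an inhibitor of the nuclear entry of the NF-κB subunit p65, dissolved in DMSO and diluted in corn oil, or corn oil as vehicle, by daily gavage for 2 weeks. EpCAM+;CD45- cells were then sorted and sequenced, with 2 samples in each of the 4 groups: WT with vehicle, KO with vehicle, WT with JSH-23 and KO with JSH-23. The sources used here do not say which tumors went into which sample, so the p-values measure the spread between these samples only.

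The extracellular matrix is the protein network that surrounds cells and is bound by their integrins. Epithelial cells rest on a basement membrane, a sheet built from laminin trimers and a collagen IV mesh that nidogens, perlecan and agrin tie together, whereas the stroma between them holds fibrils of collagens I, III and V, fibronectin, microfibrils and proteoglycans. Fibroblasts make most of the stromal matrix in many carcinomas, and tumor cells add laminins, collagen IV, fibronectin and matricellular proteins, which signal to cells more than they bear load.

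Total counts per sample ranged from 16401581 to 21972231, and 3 counts, taken as the lowest level told from 0, corresponded to between 0.144 and 0.182 CPM (counts per 1000000 counts of a library whose size was scaled by TMM). *Arid1a* itself had between 2555 and 2745 counts in the WT samples and between 1736 and 2186 in the KO samples, so its transcript was lower but present. The label of an epithelial sort was only partly borne out: *Epcam*, the gene of the sorting antigen, had between 0 and 4 counts in every sample. The luminal keratin gene *Krt8* had between 540 and 1006 counts in WT and between 1808 and 2308 in KO samples (log2 fold change 1.02, adjusted p = 3.79e-29 by edgeR for KO relative to WT with vehicle; 1.60, adjusted p = 2.49e-37 with JSH-23). The gene of its partner keratin, *Krt18*, had only between 4 and 18 counts in a sample, and the E-cadherin gene *Cdh1* between 1 and 19. *Ptprc*, which encodes CD45, had between 0 and 10 counts and the endothelial gene *Pecam1* between 5 and 12. *Pdgfra*, a fibroblast marker, had between 704 and 1265 counts, while the other 8 fibroblast markers had between 18 and 65 counts in all and *Fap* was at 0 in all 8 samples. *Pdgfra* fell with JSH-23 in KO tumors, from 1090 and 1265 to 704 and 802 counts (log2 fold change -0.67, adjusted p = 1.83e-17), and was at -0.09 in WT tumors; its part in the falls of matrix genes in the same comparison was not tested. In bulk samples, fewer cells of a type and less RNA per cell cannot be told apart.

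The matrix genes of these cells were dominated by a few transcripts. *Fn1*, which encodes fibronectin, was the most abundant of all genes by CPM and took between 1.64% and 1.85% of the counts of a sample, and between 73.8% and 76.5% of the counts of the 44 genes. The other 43 together took between 0.535% and 0.633%. Per kilobase of the deposited gene length, a scale on which genes can be compared, *Fn1* stood at 2161 ± 5.66 CPM per kilobase (SD, n = 2) in WT tumors with vehicle. *Spp1*, encoding the secreted phosphoprotein osteopontin, followed at 529 ± 0.21, then *Lama5*, a laminin α chain, at 191 ± 0.414. *Ltbp1* and *Sparc* were next at 68.2 ± 0.714 and 68.0 ± 0.786, values that did not differ beyond their spread. Summed over families, the 18 collagens reached 77.2 ± 0.322 CPM per kilobase in WT and 66.4 ± 0.920 in KO tumors with vehicle, and 64.2 ± 0.399 and 55.1 ± 0.982 with JSH-23. The 8 laminin chains reached 346 ± 1.37 in WT and 282 ± 3.43 in KO tumors with vehicle, and 301 ± 1.00 and 256 ± 2.53 with JSH-23. Both sums stood lower in KO than in WT tumors in either treatment. The largest part of the laminin sum was *Lama5*, at 191 ± 0.414 in WT and 137 ± 0.381 in KO tumors with vehicle. Not every member followed its sum: *Lamc1*, *Lamb1* and *Col4a1* were higher in KO tumors in both treatments, and *Col6a3* with vehicle. The 6 matricellular genes, most of whose sum was *Spp1*, reached 602 ± 0.834 and 629 ± 9.39 with vehicle in WT and KO tumors, and 1042 ± 8.59 and 1324 ± 8.91 with JSH-23. A total of 23 genes reached 100 counts in at least 1 sample, and 21 stayed below 100 counts in every sample, with 180 to 461 counts per sample for all 21 together.

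**Figure D1:**
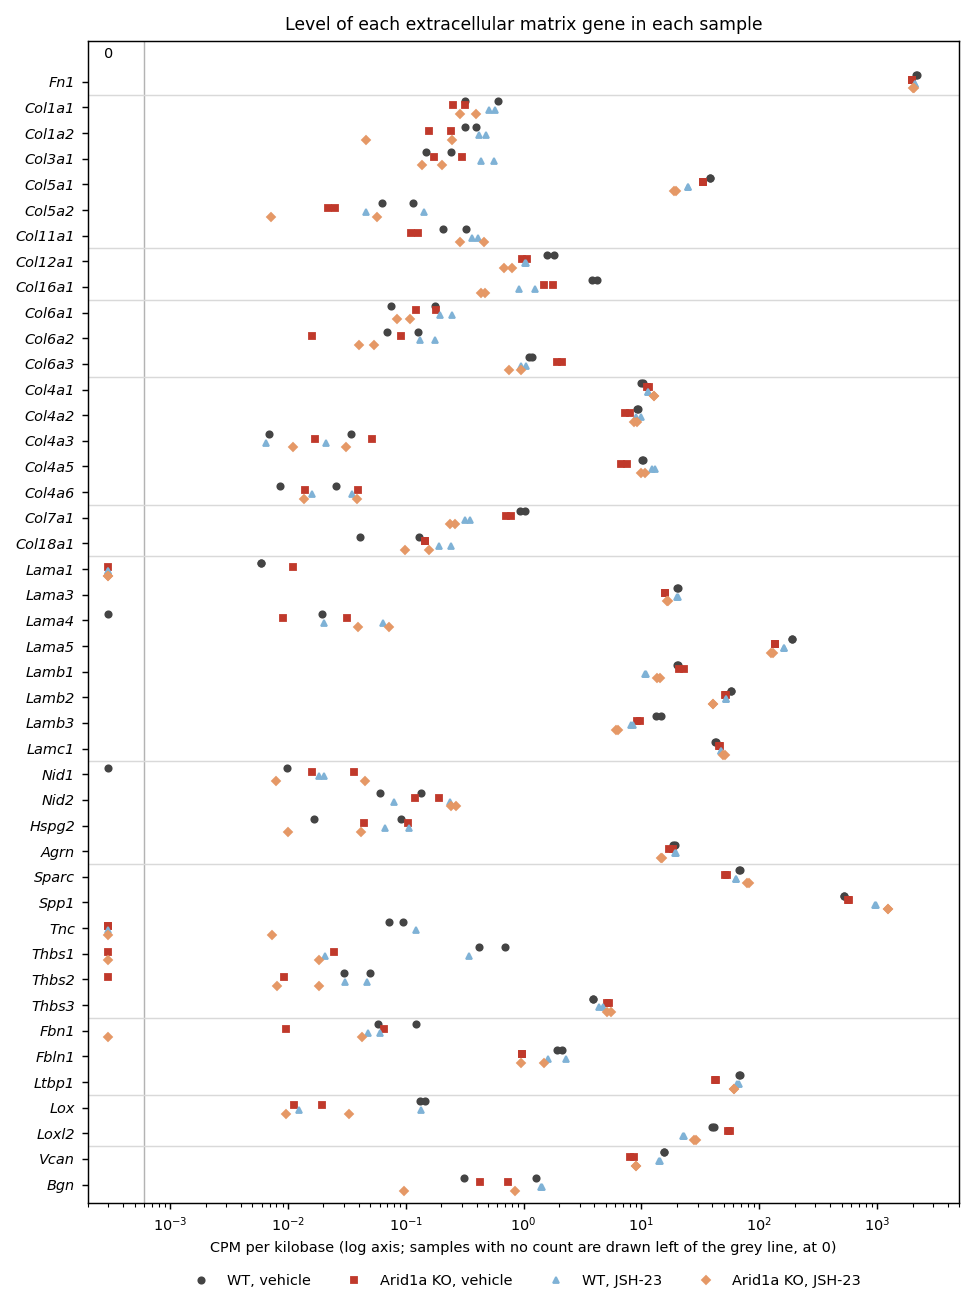
Level of each of the 44 matrix genes in CPM per kilobase of gene length (log axis), with a point for each of the 8 samples, genes grouped by family and samples without a count drawn at the left edge. *Fn1*, *Spp1* and *Lama5* lie at the top, while the stromal collagen genes *Col1a1*, *Col1a2* and *Col3a1* lie below 1 CPM per kilobase in every group.

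The scarce genes included those of the stromal fibrils. *Col1a1*, *Col1a2* and *Col3a1*, which encode the main stromal fibril collagens I and III, had at most 61, 45 and 56 counts in any sample. *Bgn*, encoding the small proteoglycan biglycan, had at most 63, and *Fbn1*, encoding the microfibril protein fibrillin, at most 21. The *Col5a1* level per kilobase exceeded that of its neighbour in collagen V fibrils, *Col5a2*, by a factor of 172 to 2721 in the 8 samples. A total of 6 genes did not pass the filter on low counts and were not tested: *Col4a3* and *Col4a6* (minor collagen IV chains), *Lama1* and *Lama4* (laminin α chains), *Nid1* (a nidogen) and *Thbs2* (a thrombospondin), none with more than 8 counts in a sample. The mean count was 3 or fewer in every group for *Lama1* and *Nid1*.

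For 38 genes, 5 comparisons were tested with edgeR's quasi-likelihood model over all 13921 tested genes. A gene is said to have risen or fallen where the Benjamini-Hochberg adjusted p was under 0.05 and the change at least 1.5-fold. With vehicle, relative to WT tumors, 1 of the 38 genes rose and 11 fell in KO tumors, where 7.48% of all tested genes rose and 5.16% fell. With JSH-23, 0 rose and 11 fell in KO relative to WT tumors, against 3.74% and 4.97% of all genes. This 0 from edgeR was also 0 at an unadjusted p under 0.05 with the same fold, by DESeq2 and by limma. JSH-23 relative to vehicle went with 3 genes that rose and 8 that fell in KO tumors (all genes 9.1% and 16.9%), and with 4 that rose and 8 that fell in WT tumors (5.55% and 10.2%). The interaction, the difference between the JSH-23 effects in KO and WT tumors, was positive for 2 genes and negative for 4 (3.3% and 5.76%). By the adjusted p alone, for changes of any size, 7 genes were higher and 22 lower in KO tumors with vehicle (all genes 25% and 25.5%), and 7 higher and 21 lower in KO tumors with JSH-23 (23.2% and 23.8%). On the same rule, 11 were higher and 12 lower with JSH-23 in KO tumors (33.4% and 34.4%), 8 higher and 13 lower in WT tumors (28.6% and 27.2%), and the interaction was positive for 9 and negative for 8 (20.5% and 17.9%).

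Because a scarce gene can pass the filter only through the group in which it is high, the 23 genes with 100 or more counts in a sample were also counted alone; these too could enter through their highest sample. Among them 1 rose and 5 fell in KO tumors with vehicle, 0 rose and 3 fell in KO tumors with JSH-23 (edgeR, and 0 rose at an unadjusted p under 0.05), 2 rose and 7 fell with JSH-23 in KO tumors, and 1 rose and 7 fell with JSH-23 in WT tumors. Their median log2 fold change was -0.27 and -0.28 for KO relative to WT with vehicle and with JSH-23, beside 0.00 and -0.01 over all tested genes. For JSH-23 it was 0.03 in KO and -0.10 in WT tumors, beside -0.02 and -0.01. The shares of all tested genes that rose and fell in the same comparisons, in that order, were 7.48% and 5.16%, 3.74% and 4.97%, 9.1% and 16.9%, and 5.55% and 10.2%. These shares and medians cover genes of any abundance. Those of all genes with 100 or more counts were not counted, so the 23 genes have no background of like abundance. Scaling by library size only moved the median of all genes to -0.13 for JSH-23 in KO tumors, limma on log2(TPM + 1) moved it to -0.20, and small positive values there turned negative under both settings for *Fn1*, *Lama3*, *Thbs3* and *Vcan*. The comparisons share groups: KO tumors with vehicle, for example, enter both the genotype comparison with vehicle and the JSH-23 comparison in KO tumors.

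**Figure D2:**
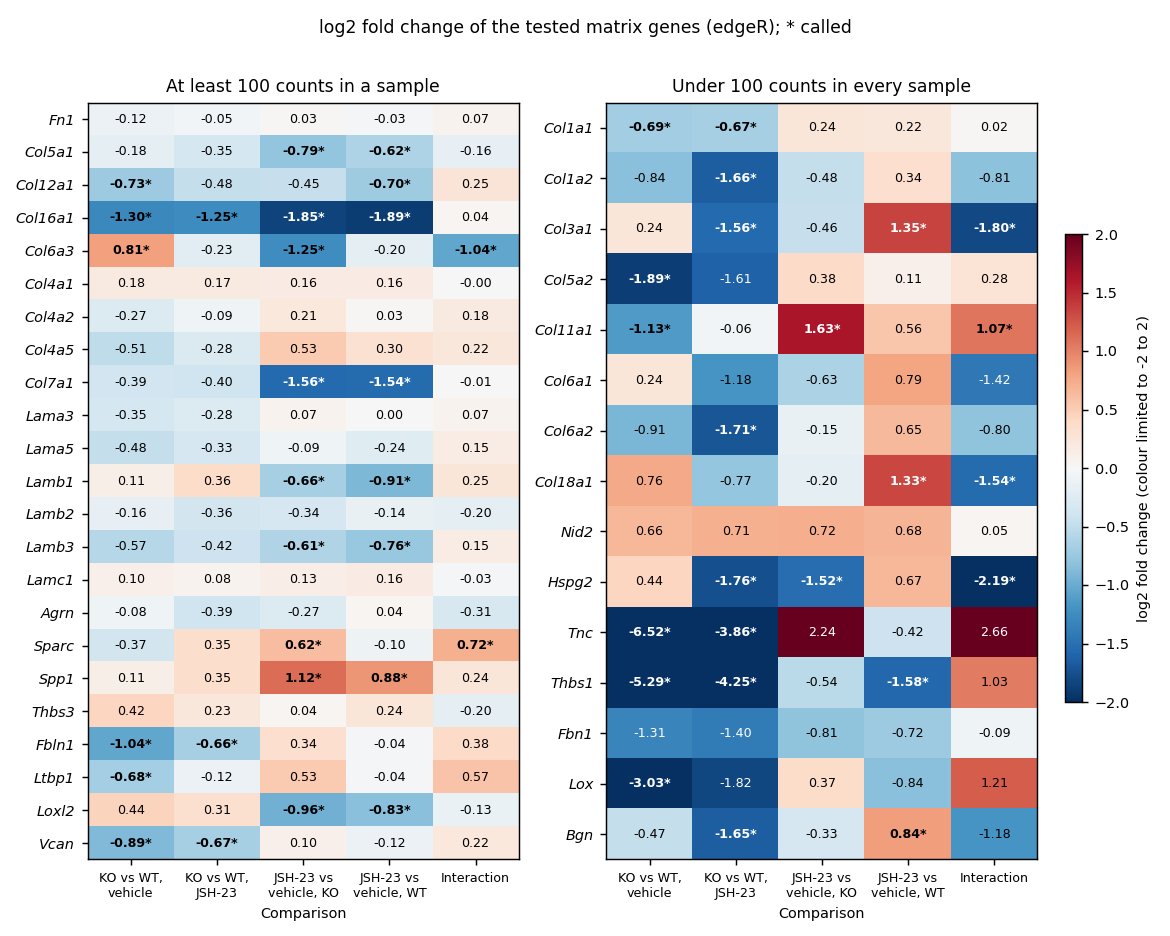
Log2 fold changes of the 38 tested matrix genes (lines, by family) in the 4 pairwise comparisons and the interaction (columns), with 23 genes that reached 100 counts on the left and 15 scarce ones on the right, coloured from -2 to 2, and an asterisk on each change that passed an adjusted p of 0.05 and 1.5-fold. Fitted values of *Tnc*, which had 0 counts in KO tumors with vehicle, are no bounds. *Col16a1* is marked as lower in all 4 pairwise comparisons and *Spp1* as higher with JSH-23 in both genotypes.

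The fibronectin gene, whose product is assembled by cells into fibrils on integrins, passed the fold threshold in no comparison. *Fn1* stood at 18336 and 18269 CPM in the WT samples with vehicle, 16917 and 16869 in KO with vehicle, 17797 and 17932 in WT with JSH-23 and 17197 and 17315 in KO with JSH-23. The KO samples were below the WT samples in both treatments without overlap, but the log2 fold changes were -0.12 with vehicle and -0.05 with JSH-23. The change with JSH-23 was 0.03 in KO and -0.03 in WT tumors; the sign in KO tumors turned to -0.08 when counts were scaled by library size only.

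Of the fibrillar collagens, *Col5a1* was the single abundant member. It encodes the α1 chain of collagen V, which seeds and limits the width of collagen I fibrils. It measured 325 and 323 CPM in WT and 285 and 285 in KO tumors with vehicle, and 211 and 210.2 in WT and 162 and 168 in KO tumors with JSH-23. The 4 groups did not overlap, and both genotypes were lower with JSH-23. The gene fell with JSH-23 in KO (-0.79, SE 0.027, adjusted p = 4.83e-38) and in WT tumors (-0.62, SE 0.026, adjusted p = 4.37e-32). Relative to WT it was -0.18 in KO tumors with vehicle and -0.35 with JSH-23, both under 1.5-fold.

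The fibril-associated collagens, which coat fibrils or sit near basement membranes without forming fibrils of their own, held the gene that fell in all 4 pairwise comparisons. *Col16a1* had 24.0 and 26.5 CPM in WT tumors with vehicle and 9.34 and 11.1 in KO tumors with vehicle. With JSH-23 it had 5.75 and 7.90 in WT and 2.70 and 2.97 in KO tumors. The 4 groups were ordered without overlap, WT with vehicle highest and KO with JSH-23 lowest. In KO relative to WT tumors it fell with vehicle (-1.30, SE 0.11, adjusted p = 5.12e-17) and with JSH-23 (-1.25, SE 0.18, adjusted p = 9.91e-09). For JSH-23 relative to vehicle the change was -1.85 (SE 0.16, adjusted p = 9.99e-17) in KO and -1.89 (SE 0.12, adjusted p = 1.3e-22) in WT tumors. The interaction was 0.04 (SE 0.22, adjusted p = 0.905), and a difference between the genotypes in the JSH-23 effect was not detected.

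*Col12a1*, whose product links fibrils to other matrix, had 25.4 and 22.3 CPM in WT tumors with vehicle, 15.2 and 13.6 in KO with vehicle, 14.8 and 14.5 in WT with JSH-23 and 9.73 and 11.2 in KO with JSH-23. WT tumors with vehicle were the highest and KO tumors with JSH-23 the lowest, while the other groups overlapped. It fell in KO tumors with vehicle (-0.73, SE 0.096, adjusted p = 1.07e-09) and with JSH-23 in WT tumors (-0.70, SE 0.098, adjusted p = 4.9e-09). For KO relative to WT with JSH-23 the value was -0.48, and for JSH-23 in KO tumors -0.45; the interaction was 0.25 (SE 0.15, adjusted p = 0.181). By limma on log2(TPM + 1), a scale that understates the changes of low genes, neither change reached 1.5-fold (-0.55 and -0.57), and the fall with JSH-23 in WT tumors was -0.58 with the 3 libraries set aside that are named with the cell type markers.

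*Col6a3* was the one of the 38 tested genes that rose in KO tumors with vehicle. It encodes the largest chain of collagen VI, a beaded filament around cells. The gene had 12.2 and 12.8 CPM in WT and 23.2 and 20.7 in KO tumors with vehicle, and 10.3 and 11.4 in WT and 10.4 and 8.20 in KO tumors with JSH-23. The KO samples with vehicle stood above all 6 others. The log2 fold change in KO tumors was 0.81 (SE 0.1, adjusted p = 3.62e-10) with vehicle. The gene fell with JSH-23 in KO tumors (-1.25, SE 0.11, adjusted p = 5.68e-17), while in WT tumors the JSH-23 value was -0.20 (SE 0.12, adjusted p = 0.144) and the interaction was -1.04 (SE 0.16, adjusted p = 1.44e-07). Its partner chains *Col6a1* and *Col6a2* had between 2 and 19 counts per sample.

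Among the basement membrane genes of the 44, the tested collagen IV genes *Col4a1*, *Col4a2* and *Col4a5* passed the fold threshold in no comparison, whereas *Col7a1* and laminin β chains fell with JSH-23. *Col4a1* and *Col4a2*, the chains of the common collagen IV trimer, are transcribed away from each other on chromosome 8, and their annotated ends overlap by 85 bases, which the counting by strand keeps apart. *Col4a1* had 77.9 and 74.3 CPM in WT and 84.7 and 87.2 in KO tumors with vehicle, and 84.8 and 85.2 in WT and 95.7 and 96.1 in KO tumors with JSH-23. *Col4a2* had 59.4 and 60.1 in WT and 47.2 and 51.3 in KO tumors with vehicle, and 58.4 and 63.7 in WT and 55.4 and 59.0 in KO tumors with JSH-23. No change of either reached 1.5-fold, but the ratio of *Col4a1* to *Col4a2* per kilobase was 1.06 to 1.25 in the 4 WT samples and 1.40 to 1.54 in the 4 KO samples, without overlap. *Col4a5*, a chain of another collagen IV network, ranged from 44.2 to 84.8 CPM. Its log2 fold changes for KO relative to WT were -0.51 with vehicle and -0.28 with JSH-23. For JSH-23 they were 0.53 in KO and 0.30 in WT tumors. Each of these changes was under 1.5-fold. *Col4a4*, a collagen IV gene outside the 44, was lower with JSH-23 in KO tumors (-1.76, adjusted p = 0.0211 by edgeR). It had 11 and 13 counts there with vehicle and 2 and 5 with JSH-23. Because it passed the filter through those samples with vehicle, this call carries no weight as a test.

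*Col7a1*, which forms the anchoring fibrils under stratified epithelia, had 9.44 and 8.59 CPM in WT tumors with vehicle and 7.24 and 6.59 in KO tumors with vehicle. With JSH-23 it had 3.24 and 2.92 in WT and 2.22 and 2.45 in KO tumors. All 4 samples with JSH-23 were below all 4 with vehicle. It fell with JSH-23 in KO (-1.56, SE 0.18, adjusted p = 1.37e-11) and in WT tumors (-1.54, SE 0.17, adjusted p = 5.78e-12), with an interaction of -0.01 (SE 0.25, adjusted p = 0.975). For KO relative to WT the values were -0.39 with vehicle and -0.40 with JSH-23, under 1.5-fold.

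Laminins are trimers of an α, a β and a γ chain. *Lama5* was the main α chain, with 2226 and 2219 CPM in WT and 1592 and 1598 in KO tumors with vehicle, and 1879.6 and 1889.7 in WT and 1476 and 1518 in KO tumors with JSH-23. The KO samples were lower in both treatments without overlap, at -0.48 and -0.33 on the log2 scale, short of 1.5-fold. *Lama3*, the α chain of the laminin of hemidesmosomes, ranged from 194 to 252 CPM over the 8 samples, with -0.35 and -0.28. The γ chain gene among the 44, *Lamc1*, ranged from 324 to 388 CPM, with 0.10 and 0.08 (the second -0.11 by limma on TPM values). Per kilobase the ratio of *Lama5* to *Lamc1* ranged from 4.46 to 4.50 in WT tumors with vehicle down to 2.49 to 2.63 in KO tumors with JSH-23. *Lamb2*, a β chain of basement membranes of muscle and vessels, ranged from 228 to 325 CPM and stayed within 1.5-fold, at -0.16 and -0.36 for KO relative to WT.

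The other β chains fell with JSH-23. *Lamb1* had 118 and 119 CPM in WT and 122 and 135 in KO tumors with vehicle, and 64.4 and 62.3 in WT and 79.1 and 83.7 in KO tumors with JSH-23. Every sample with JSH-23 was below every sample with vehicle, and the log2 fold change was -0.66 (SE 0.041, adjusted p = 2.27e-23) in KO and -0.91 (SE 0.045, adjusted p = 8.22e-28) in WT tumors. *Lamb3*, the β chain that pairs with *Lama3*, had 63.5 and 57.3 CPM in WT and 39.4 and 41.9 in KO tumors with vehicle, and 36.3 and 35.1 in WT and 27.3 and 26.3 in KO tumors with JSH-23. Its samples with JSH-23 were likewise all below those with vehicle. Its log2 fold change with JSH-23 was -0.61 (SE 0.068, adjusted p = 2.95e-12) in KO and -0.76 (SE 0.063, adjusted p = 6.14e-17) in WT tumors. Both calls in KO tumors lay near the fold threshold: without the second KO sample with vehicle, *Lamb1* was at -0.57 (adjusted p = 2.2e-18) and *Lamb3* at -0.55 (adjusted p = 2.79e-08). Without the second KO sample with JSH-23 *Lamb3* was at -0.55 (adjusted p = 2.67e-08), and with the 3 libraries set aside at -0.56, each just inside 1.5-fold. Of the genes that tie the network together, *Agrn*, encoding agrin, was the abundant one, ranging from 172 to 229.9 CPM, at -0.08 and -0.39 for KO relative to WT and -0.27 and 0.04 for JSH-23 in KO and WT tumors.

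Among the 23 abundant genes, those that rose with JSH-23 were the matricellular genes *Spp1* and *Sparc*. *Spp1* had 877 and 878 CPM in WT and 938 and 957 in KO tumors with vehicle. With JSH-23 it reached 1603 and 1624 in WT and 2046 and 2061 in KO tumors. All samples with JSH-23 were above all with vehicle, and KO was above WT within each treatment. The gene rose with JSH-23 by a log2 fold change of 1.12 (SE 0.015, adjusted p = 5.05e-63) in KO and 0.88 (SE 0.015, adjusted p = 1.49e-55) in WT tumors, while KO relative to WT was 0.11 with vehicle and 0.35 with JSH-23. The interaction of 0.24 (SE 0.021, adjusted p = 1.58e-15) passed the adjusted p and not the fold threshold.

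*Sparc*, encoding osteonectin, which binds collagen, rose with JSH-23 in KO tumors. The levels were 182 and 185 CPM in WT and 139 and 144 in KO tumors with vehicle, and 170.3 and 171 in WT and 213 and 221 in KO tumors with JSH-23. KO samples were thus the lowest with vehicle and the highest with JSH-23. The log2 fold change with JSH-23 was 0.62 (SE 0.03, adjusted p = 6.05e-29) in KO and -0.10 in WT tumors, with an interaction of 0.72 (SE 0.043, adjusted p = 3.6e-23). The change in KO tumors was 0.50 with library size only and 0.38 by limma on TPM values, both under 1.5-fold, and by limma the interaction, 0.52, was under it too. *Thbs3*, a thrombospondin, ranged from 15.9 to 22.7 CPM, at 0.42 and 0.23 for KO relative to WT, under 1.5-fold.

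*Ltbp1*, *Vcan* and *Fbln1* fell in KO tumors with vehicle. *Ltbp1*, whose product holds latent TGF-β in the matrix, had 537 and 529 CPM in WT and 327 and 336 in KO tumors with vehicle, and 528 and 511 in WT and 478 and 481 in KO tumors with JSH-23. The KO samples with vehicle stood below the 6 others. It fell in KO tumors with vehicle (-0.68, SE 0.021, adjusted p = 2.25e-39) and was at -0.12 with JSH-23. The interaction of 0.57 (SE 0.03, adjusted p = 2.31e-26) was just short of 1.5-fold.

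*Vcan*, encoding the large proteoglycan versican, had 243 and 243 CPM in WT and 125 and 137 in KO tumors with vehicle, and 222 and 225 in WT and 141 and 141 in KO tumors with JSH-23. The 4 KO samples were below the 4 WT samples. It fell in KO tumors with vehicle (-0.89, SE 0.031, adjusted p = 2.13e-36) and with JSH-23 (-0.67, SE 0.031, adjusted p = 2.2e-29), and the values for JSH-23 relative to vehicle were 0.10 in KO and -0.12 in WT tumors. *Fbln1*, encoding fibulin, a binding partner of fibronectin and laminin, had 7.42 and 8.12 CPM in WT and 3.76 and 3.78 in KO tumors with vehicle, and 8.77 and 6.26 in WT and 3.68 and 5.76 in KO tumors with JSH-23. Its KO samples were again below its WT samples in each treatment, and the gene fell with vehicle (-1.04, SE 0.18, adjusted p = 7.57e-07) and with JSH-23 (-0.66, SE 0.17, adjusted p = 0.000717). The call with JSH-23 was lost without the first KO sample with JSH-23 (-0.38, adjusted p = 0.092) and without the first WT sample with JSH-23 (-0.39, adjusted p = 0.134).

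*Loxl2*, a lysyl oxidase that cross-links collagen, had 222 and 232 CPM in WT and 305 and 312 in KO tumors with vehicle, and 129 and 126 in WT and 162 and 156 in KO tumors with JSH-23. KO was above WT in each treatment and JSH-23 below vehicle in each genotype. It fell with JSH-23 in KO (-0.96, SE 0.028, adjusted p = 7.26e-42) and in WT tumors (-0.83, SE 0.031, adjusted p = 9.26e-35). KO relative to WT was 0.44 with vehicle and 0.31 with JSH-23, under 1.5-fold.

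**Figure D3:**
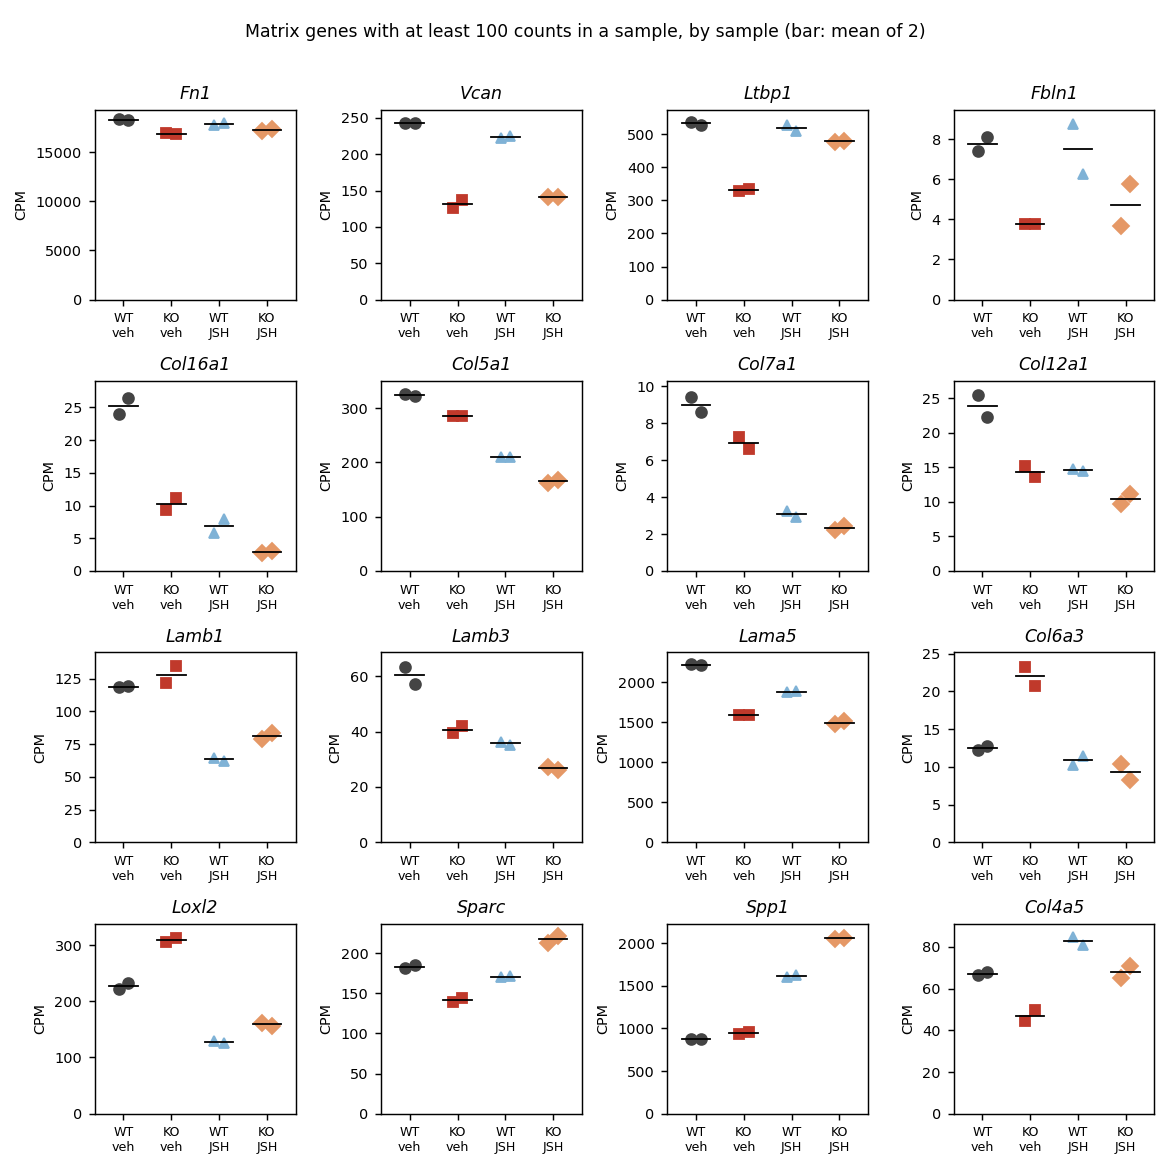
CPM of 16 of the 23 abundant matrix genes by group (WT or KO, vehicle or JSH-23), with a point per sample and a bar at the mean of 2, on axes that start at 0. *Col16a1*, *Col5a1*, *Col7a1*, *Lamb1*, *Lamb3* and *Loxl2* lie lower with JSH-23 in both genotypes, *Spp1* lies higher, and *Vcan*, *Fbln1* and *Ltbp1* lie lower in KO tumors with vehicle.

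The genes that fell with JSH-23 in both genotypes were *Col16a1*, *Col5a1*, *Col7a1*, *Lamb1*, *Lamb3* and *Loxl2*, and *Spp1* rose in both. The first 6 are 6 of the 8 genes that fell in KO and 6 of the 8 that fell in WT tumors. Over all tested genes, 16.9% fell with JSH-23 in KO and 10.2% in WT tumors. The share of all genes that fell in both was not counted, so this overlap is not read as particular to matrix genes. Since JSH-23 acts on NF-κB, the bases before the start of these genes were read from RefSeq (GRCm38.p6), which gave a window of 250 bases for 31 of the 44 genes. Windows of *Col16a1*, *Col5a1*, *Col7a1* and *Spp1* could be placed at the 5′ end of the deposited gene and are shown, up to that end and on the + strand, because these genes changed with JSH-23 in both genotypes. Capitals mark the GC box GGGCGG and the TATA box TATAAA, searched on both strands; the other motifs searched were AP-1 (TGANTCA) and the 10-letter NF-κB motif, with no overlap between the marked motifs. The *Col16a1* bases are chr4:130047590-130047816, those of *Col5a1* chr2:27886175-27886380, those of *Col7a1* chr9:108953336-108953585 and those of *Spp1* chr5:104434861-104435110.
Col16a1: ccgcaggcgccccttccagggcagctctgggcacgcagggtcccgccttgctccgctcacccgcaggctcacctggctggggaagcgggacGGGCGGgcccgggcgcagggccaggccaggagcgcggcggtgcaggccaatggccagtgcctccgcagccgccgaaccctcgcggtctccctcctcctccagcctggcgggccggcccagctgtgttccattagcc
Col5a1: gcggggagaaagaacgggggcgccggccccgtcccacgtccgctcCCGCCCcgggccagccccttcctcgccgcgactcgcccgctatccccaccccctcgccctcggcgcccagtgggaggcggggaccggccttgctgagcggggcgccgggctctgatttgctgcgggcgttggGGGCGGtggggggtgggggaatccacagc
Col7a1: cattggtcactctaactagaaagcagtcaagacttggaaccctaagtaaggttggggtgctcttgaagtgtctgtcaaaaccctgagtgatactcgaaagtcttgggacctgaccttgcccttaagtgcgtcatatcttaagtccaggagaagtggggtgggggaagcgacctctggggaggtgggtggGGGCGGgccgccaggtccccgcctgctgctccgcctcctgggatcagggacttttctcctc
Spp1: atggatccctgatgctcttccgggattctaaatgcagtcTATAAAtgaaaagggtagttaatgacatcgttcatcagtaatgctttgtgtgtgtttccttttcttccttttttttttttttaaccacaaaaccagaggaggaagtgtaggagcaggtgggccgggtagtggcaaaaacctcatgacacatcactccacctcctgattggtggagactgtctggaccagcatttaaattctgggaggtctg

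The letters of the NF-κB motif were in none of these 4 stretches, which says only that they are not in these bases. Across the windows of the 31 genes, the NF-κB motif was in 3 (9.68%), beside 7.25% of all 32841 RefSeq windows of the same length. AP-1 was in 1 (3.23%, beside 6.75%), the GC box in 20 (64.5%, beside 32.8%) and the TATA box in 4 (12.9%, beside 12.4%). A match is a description of letters and not a site of binding. For each gene the window nearest to the deposited 5′ end was counted. The RefSeq starts of *Lamb1* and *Lamb3* nearest to that end lie 147 and 7641 bases from it, so their windows are not shown. A further *Fbln1* window, whose start lies 59 bases from the deposited 5′ end, and a further *Lamb3* window, 7890 bases away, were not counted. Each holds 1 match to the NF-κB motif.

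For the 15 scarce genes that were tested, samples of 1 group differed in markers of other cell types, and the part of those cells in the results was not tested. The macrophage markers *Adgre1* and *Csf1r* had summed counts of 38 and 43 in WT tumors with vehicle and 32 and 2 in WT tumors with JSH-23, but 2 and 6 in KO tumors with vehicle and 1 and 6 in KO tumors with JSH-23. Other macrophage markers of the list did not all follow this pair. *Lyz2* had 164 and 165 counts in WT and 54 and 71 in KO tumors with vehicle, and 190 and 85 in WT and 68 and 48 in KO tumors with JSH-23. *Cd68* was instead higher in KO tumors, with 110 and 127 counts in WT and 301 and 378 in KO tumors with vehicle (1.32, adjusted p = 4.95e-15), and 98 and 81 in WT and 165 and 153 in KO tumors with JSH-23 (0.63, adjusted p = 0.000235). The smooth muscle markers *Acta2*, *Myh11* and *Tagln* had summed counts of 12 and 205 in WT and 168 and 73 in KO tumors with vehicle, and 193 and 176 in WT and 203 and 13 in KO tumors with JSH-23. Other markers of that list did not all follow. In the first WT sample with vehicle and the second KO sample with JSH-23, *Rgs5* had 0 and 1 counts, but *Des* had 1 and 10 and *Cspg4* 12 and 6. The 10 counts of *Des* were the most in any sample, and *Cspg4* had 10 and 12 in WT tumors with JSH-23. These 2 samples thus had few counts of *Acta2*, *Myh11* and *Tagln*, and the second WT sample with JSH-23 was nearly free of the macrophage pair. With these 3 libraries set aside, an alternative chosen after seeing the data, 7 rather than 11 genes fell in KO relative to WT tumors with JSH-23, and 2 rather than 4 rose with JSH-23 in WT tumors. That fit has 1 sample in 3 of the groups, each assumed to vary like the rest. The calls of scarce genes also depended on the tool: of the 11 genes that fell in KO relative to WT tumors with JSH-23, *Bgn*, *Col1a1*, *Hspg2* and *Thbs1* were not called by DESeq2 or by limma on log2(TPM + 1), and *Col1a2* was not called by DESeq2. *Col6a2* and *Tnc* were not called by limma and had no adjusted p by DESeq2. Over the whole lists, the 6 mural and smooth muscle markers ranged from 25 to 242 summed counts in WT samples and from 30 to 234 in KO samples. The 10 leukocyte markers ranged from 171 to 347 in WT samples and from 214 to 464 in KO samples, with *Ptprc* at no more than 10 counts. The 6 endothelial markers ranged from 20 to 43 in WT and from 35 to 65 in KO samples. The 9 fibroblast markers, nearly all *Pdgfra*, ranged from 914 to 1051 in WT samples, and in KO samples had 1139 and 1326 with vehicle and 767 and 860 with JSH-23.

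A group of 3 scarce genes had most counts in the samples with most counts of *Adgre1* and *Csf1r*, a pair picked from the marker list after its values were seen. *Thbs1*, encoding a thrombospondin that activates TGF-β, had 69 and 42 counts in WT and 0 and 3 in KO tumors with vehicle, and 36 and 2 in WT and 2 and 0 in KO tumors with JSH-23. *Tnc*, encoding tenascin-C, had 9 and 12 in WT and 0 and 0 in KO tumors with vehicle, and 16 and 0 in WT and 1 and 0 in KO tumors with JSH-23. *Lox*, encoding lysyl oxidase, had 12 and 11 in WT and 1 and 2 in KO tumors with vehicle, and 12 and 1 in WT and 3 and 1 in KO tumors with JSH-23. For each of the 3 genes, the 3 samples with most counts were both WT samples with vehicle and the first WT sample with JSH-23, which were also the 3 with most counts of that pair. These genes passed the filter through those samples, so a difference between groups had to follow, and their calls carry no weight as tests.

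In KO tumors with vehicle *Thbs1* was lower by a ratio of summed counts of 41.6 (95% interval 13.9 to 205, counting error only), *Lox* by 8.62 (2.61 to 44.9) and *Tnc*, with 0 counts in KO, was at least 3.99-fold lower at a floor of 3 counts per library. The *Tnc* call was lost by DESeq2 (adjusted p = 0.141) and by limma on log2(TPM + 1) (adjusted p = 0.114), and that of *Lox* by limma, at -0.38. With JSH-23, *Thbs1* was lower in KO by a ratio of 22.96 (5.93 to 196) and *Tnc* by 19.3 (3.004 to 811). Both rested on the first WT sample with JSH-23: without it, the log2 fold changes were -1.15 (adjusted p = 0.605) and 2.25 (adjusted p = 0.636). Without the second KO sample with JSH-23, *Tnc* was at -2.93 (adjusted p = 0.0953). In WT tumors the log2 fold change of *Thbs1* with JSH-23 was -1.58, with no call without the second WT sample with JSH-23 (-0.70, adjusted p = 0.152), without the first WT sample with vehicle (-1.17, adjusted p = 0.0855) or by DESeq2 (adjusted p = 0.494).

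*Bgn* and *Hspg2* had fewest counts in the 2 samples with fewest smooth muscle counts, and *Col1a2* in 1 of these. *Bgn* had 13 and 54 counts in WT and 33 and 22 in KO tumors with vehicle, and 63 and 59 in WT and 39 and 5 in KO tumors with JSH-23. *Hspg2*, encoding perlecan, had 4 and 22 in WT and 27 and 13 in KO tumors with vehicle, and 17 and 25 in WT and 11 and 3 in KO tumors with JSH-23. *Col1a2* had 28 and 35 in WT and 23 and 17 in KO tumors with vehicle, and 45 and 36 in WT and 24 and 5 in KO tumors with JSH-23. For all 3 genes the second KO sample with JSH-23 was the lowest of the 8. In KO relative to WT tumors with JSH-23, *Bgn* (-1.65, SE 0.38, adjusted p = 0.000242), *Hspg2* (-1.76, SE 0.56, adjusted p = 0.00691) and *Col1a2* (-1.66, SE 0.39, adjusted p = 0.000262) fell. Without that KO sample none of the 3 passed, at -0.74 (adjusted p = 0.092), -1.02 (adjusted p = 0.199) and -0.85 (adjusted p = 0.092), respectively. *Hspg2* was also lost without the second WT sample with JSH-23 (-1.39, adjusted p = 0.115).

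*Hspg2* also fell with JSH-23 in KO tumors (-1.52, SE 0.57, adjusted p = 0.0146), a call lost without the second KO sample with JSH-23 (-0.78, adjusted p = 0.289) or the first KO sample with vehicle (-0.80, adjusted p = 0.364). *Bgn* rose with JSH-23 in WT tumors (0.84, SE 0.36, adjusted p = 0.0398). Without the first WT sample with vehicle, which had few counts of *Acta2*, *Myh11* and *Tagln*, it was at 0.17. Without the first or the second WT sample with JSH-23 it was at 0.86 and 0.84. The *Bgn* call was lost in each case. *Col18a1*, a basement membrane collagen whose end yields endostatin, had 5 and 16 counts in WT and 19 and 22 in KO tumors with vehicle, and 25 and 29 in WT and 21 and 15 in KO tumors with JSH-23. The first WT sample with vehicle was the lowest. It rose with JSH-23 in WT tumors (1.33, SE 0.45, adjusted p = 0.00888), but not without that first WT sample (0.74, adjusted p = 0.231) or the second WT sample with JSH-23 (1.17, adjusted p = 0.0731).

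Calls of the scarce fibrillar collagens depended on single samples to different degrees. *Col3a1* had 14 and 23 counts in WT and 30 and 20 in KO tumors with vehicle, and 56 and 40 in WT and 21 and 16 in KO tumors with JSH-23. The WT samples with JSH-23 were the highest. It was lower in KO than in WT tumors with JSH-23 (-1.56, SE 0.34, adjusted p = 9.2e-05), a call kept under every alternative that tested the gene, and it rose with JSH-23 in WT tumors (1.35, SE 0.34, adjusted p = 0.000574). *Col11a1*, a fibrillar collagen of cartilage that also occurs in carcinomas, had 43 and 28 counts in WT and 16 and 21 in KO tumors with vehicle, and 52 and 54 in WT and 68 and 48 in KO tumors with JSH-23. The KO samples with vehicle were the lowest of the 8. It fell in KO tumors with vehicle (-1.13, SE 0.34, adjusted p = 0.00374, but -0.79, adjusted p = 0.132 without the first WT sample) and rose with JSH-23 in KO tumors (1.63, SE 0.31, adjusted p = 5.44e-06).

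*Col1a1* had 32 and 61 counts in WT and 27 and 39 in KO tumors with vehicle, and 54 and 56 in WT and 43 and 36 in KO tumors with JSH-23. The counts overlapped with vehicle and not with JSH-23. It fell in KO tumors with vehicle (-0.69, SE 0.29, adjusted p = 0.0398) and with JSH-23 (-0.67, SE 0.27, adjusted p = 0.0362). Leaving out the first KO or the second WT sample with vehicle ended the first call (-0.54, adjusted p = 0.201; -0.16, adjusted p = 0.759). The second ended without the second KO sample (-0.45, adjusted p = 0.277) and without either WT sample with JSH-23 (-0.76, adjusted p = 0.0554, and -0.58, adjusted p = 0.155). *Col5a2* had 20 counts in all in WT and 6 in KO tumors with vehicle, a ratio of 3.75 (1.45 to 11.4) and an adjusted p of 0.0323 by edgeR. The call was lost without either KO sample (-1.98 and -1.79) or the second WT sample (-1.39). The gene passed the filter through WT samples, with 13 counts in the second one with vehicle and 17 in the first one with JSH-23. No KO sample had more than 7 counts, so this call carries no weight as a test. *Col6a2* fell in KO tumors with JSH-23 (-1.71, SE 0.59, adjusted p = 0.013), on 19 and 13 counts in WT and 6 and 5 in KO, and not without the second KO (-1.49, adjusted p = 0.12) or the first WT sample (-1.47, adjusted p = 0.128). The remaining 3 tested scarce genes, *Col6a1*, *Nid2* and *Fbn1*, passed the threshold in no comparison.

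**Figure D4:**
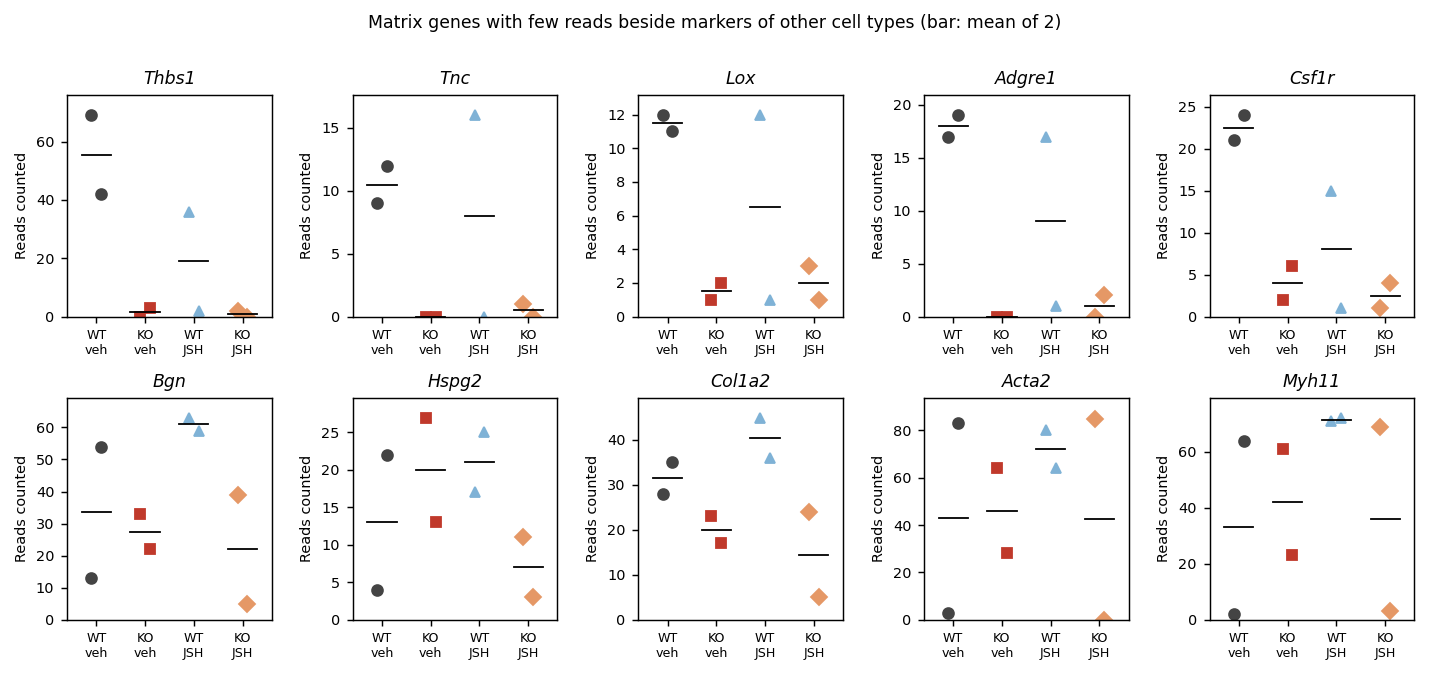
Reads counted per sample for 6 scarce matrix genes and for the macrophage markers *Adgre1* and *Csf1r* and the smooth muscle markers *Acta2* and *Myh11*, by group, with a point per sample and a bar at the mean of 2. *Thbs1*, *Tnc* and *Lox* are highest in the samples with most *Adgre1* and *Csf1r* counts, and *Bgn* and *Hspg2* are lowest in the 2 samples with fewest *Acta2* and *Myh11* counts.

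The difference between the JSH-23 effects in the 2 genotypes passed both thresholds for *Sparc* and *Col11a1*, which were more positive in KO, and for *Col6a3*, *Col3a1*, *Col18a1* and *Hspg2*, which were more negative. Of these, *Sparc* and *Col6a3* were abundant. The *Col6a3* interaction held under every alternative, between -1.20 and -0.75. Those of *Col11a1* (1.07, SE 0.43, adjusted p = 0.0398), *Col3a1* (-1.80, SE 0.51, adjusted p = 0.00327), *Col18a1* (-1.54, SE 0.62, adjusted p = 0.042) and *Hspg2* (-2.19, SE 0.76, adjusted p = 0.0158) did not. Leaving out the first KO sample with vehicle ended all 4, at 0.98 (adjusted p = 0.105) for *Col11a1*, -1.38 (adjusted p = 0.0786) for *Col3a1*, -1.54 (adjusted p = 0.0856) for *Col18a1* and -1.47 (adjusted p = 0.223) for *Hspg2*. Without the first WT sample with vehicle *Col11a1* was at 0.73 (adjusted p = 0.272), *Col18a1* at -0.94 (adjusted p = 0.293) and *Hspg2* at -1.44 (adjusted p = 0.152). The *Col11a1* interaction was also lost without the second KO sample with vehicle (1.18, adjusted p = 0.0611), the first KO sample with JSH-23 (0.72, adjusted p = 0.239) or the first WT sample with JSH-23 (0.99, adjusted p = 0.0884). That of *Col18a1* was lost without the second KO sample with vehicle (-1.52, adjusted p = 0.0981). Both *Col18a1* and *Hspg2* were lost without the second KO sample with JSH-23 (-1.22, adjusted p = 0.162, and -1.45, adjusted p = 0.157) or the second WT sample with JSH-23 (-1.36, adjusted p = 0.13, and -1.83, adjusted p = 0.102).

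A wider list of 75 other matrix structural genes, of which 30 were tested, was read for comparison. It shares *Dcn*, *Lum* and *Postn* with the fibroblast markers. In KO relative to WT tumors with vehicle 7 rose and 6 fell (23.3% and 20% of the 30, beside 7.48% and 5.16% of all genes), with a median log2 fold change of 0.02. With JSH-23, 0 rose by edgeR's test (1 at an unadjusted p under 0.05) and 5 fell (16.7%, beside 4.97%), with a median of -0.17. JSH-23 went with 1 rise and 14 falls in KO tumors (3.33% and 46.7%, beside 9.1% and 16.9%, median -0.46). In WT tumors it went with 1 rise and 4 falls (3.33% and 13.3%, beside 5.55% and 10.2%, median -0.26). Of the other collagens *Col2a1*, the cartilage collagen, rose in KO tumors with vehicle (1.77, adjusted p = 3.93e-05) and fell with JSH-23 in both genotypes (-3.36, adjusted p = 5.72e-10 in KO, -1.85, adjusted p = 0.00665 in WT). It had 9 and 20 counts in WT and 50 and 64 in KO tumors with vehicle, and 5 and 3 in WT and 7 and 4 in KO tumors with JSH-23. Its fall in WT tumors thus rests on few counts. *Col17a1*, a transmembrane collagen of hemidesmosomes, rose in KO tumors with vehicle (1.84, adjusted p = 0.00037) and fell with JSH-23 in KO tumors (-1.90, adjusted p = 0.000109). It had 10 and 7 counts in WT and 40 and 30 in KO tumors with vehicle, and 7 and 4 in WT and 10 and 9 in KO tumors with JSH-23. Both collagen genes passed the filter through the KO samples with vehicle. Their calls that involve those samples carry no weight as tests, though they count among the 7 rises and 14 falls above. *Lamc3*, a laminin γ chain, fell in KO tumors in both treatments (-1.40, adjusted p = 1.11e-31 and -1.91, adjusted p = 8.73e-36), and *Tnxb*, encoding a tenascin, fell with JSH-23 in both genotypes (-1.16, adjusted p = 3.11e-66 in KO, -0.85, adjusted p = 1.29e-57 in WT).

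Of 25 genes for collagen processing and secretion 18 were tested. In KO tumors with vehicle 1 rose and 2 fell (5.56% and 11.1%, beside 7.48% and 5.16% of all genes): *P4ha1*, a prolyl hydroxylase subunit, rose (0.66, adjusted p = 5.77e-38), and *P3h1*, a prolyl hydroxylase, and *Adamts14*, a procollagen peptidase, fell (-1.01, adjusted p = 2.09e-11 and -1.10, adjusted p = 2.38e-09). With JSH-23, 0 rose by edgeR's test (0 at an unadjusted p under 0.05) and 2 fell in KO relative to WT tumors (11.1%, beside 4.97%). JSH-23 went with 1 rise and 4 falls in KO tumors (5.56% and 22.2%, beside 9.1% and 16.9%) and 1 rise and 2 falls in WT tumors (5.56% and 11.1%, beside 5.55% and 10.2%), falls near the share over all genes. *P3h1* was the gene that rose in both genotypes (1.37, adjusted p = 3.82e-18 and 0.66, adjusted p = 1.83e-08), and *P4ha2*, another prolyl hydroxylase subunit, fell in both (-0.96, adjusted p = 6.99e-43 and -0.67, adjusted p = 5.18e-31).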

How the data were processed

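RNA was sequenced from 8 samples of sorted Myc-CaP tumor cells. Per the study's methods, the authors aligned reads with TopHat2 to GRCm38 (mm10) and counted them by strand with HTSeq-count (version 0.13.5), while the submitters' processing notes name HISAT2, HTSeq and DESeq2; which aligner made the files is not settled here. Each deposited table holds raw read counts and TPM (transcripts scaled for gene length and library size, computed by the authors from the gene lengths they deposited) for 39089 genes. A deposited table of TPM for the whole series was not used, since the tables of the samples hold its values.

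Counts were tested with edgeR (version 4.0.16, R 4.3.3) after filterByExpr and TMM scaling, by the quasi-likelihood F test with 1 mean per group over all 8 samples, which share an estimate of the spread. Adjusted p-values (Benjamini-Hochberg) cover all 13921 tested genes, and a call needs an adjusted p under 0.05 and a change of at least 1.5-fold, in either direction. CPM values are scaled by TMM, and CPM per kilobase uses the deposited gene length. Replicates of a group differed by more than sampling noise alone (chi-square per degree of freedom 1.46 to 1.57). The common biological coefficient of variation of the fit was 1.61%. Neither value can tell separate tumors from portions of a pool, so the replicates are treated as samples and not as animals. With total counts from 16401581 to 21972231, exact 95% intervals of count ratios and floors of 3 counts cover counting error only. Alternatives were DESeq2 (version 1.42.0), scaling by library size, no filter or at least 10 counts in every sample, a replicate block, limma (version 3.58.1) on log2(TPM + 1) with a pseudocount of 1, the unadjusted p with 1.5-fold that the study used, the adjusted p without a fold, a fixed biological coefficient of variation of 0.1, and leaving out each sample. The alternatives that count only genes with 100 counts in a sample, or that set 3 libraries aside, were added after seeing the data. The scripts were tested on simulated data.

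The 44 genes and all gene lists were chosen with earlier results of these data known. All members that passed in a comparison are named. Of members that did not pass, those above 100 CPM in a group or with a mean of 3 counts or fewer in every group are named. A few others of the 44, among them *Col4a1*, *Col4a2*, *Col4a5* and *Thbs3*, and from the other lists the genes with the largest changes among those called, are named as well. The macrophage and smooth muscle subsets of the marker lists were singled out after their values were seen.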

Additional observations from a re-analysis of the deposited data

Results flagged for a closer look

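The effect of JSH-23 differed between KO and WT tumors for 6 of the matrix genes, by edgeR's test of the difference itself with an adjusted p under 0.05 and at least 1.5-fold. More genes passed the adjusted p alone, among them *Ltbp1* (0.57, adjusted p = 2.31e-26) and *Spp1* (0.24, adjusted p = 1.58e-15). Of the 6, 2 were positive and 4 negative, where 3.3% of all tested genes were positive and 5.76% negative. On the log2 scale, KO minus WT, the difference was 0.72 for *Sparc* and 1.07 for *Col11a1*, and it was -1.04 for *Col6a3*, -1.54 for *Col18a1*, -1.80 for *Col3a1* and -2.19 for *Hspg2*. *Sparc* and *Col6a3* had more than 100 counts in every sample, whereas the other 4 stayed below 100 counts in every sample. Each of those 4 lost its call when the first KO sample with vehicle was left out.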

How the results depend on the processing

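Counts of matrix genes that passed are given for KO relative to WT tumors with vehicle (A) and with JSH-23 (B), for JSH-23 relative to vehicle in KO (C) and WT tumors (D), and for the interaction (E). By the adjusted p without a fold threshold, 7 rose and 22 fell in A, 7 rose and 21 fell in B, 11 rose in C, 8 rose and 13 fell in D, and 9 were positive and 8 negative in E. With at least 10 counts in every sample, 7 fell in A, 5 fell in B, 2 rose in D and 2 were negative in E, since fewer genes were tested. Among genes with 100 counts in a sample, 5 fell in A, 3 fell in B, 1 rose in D, and 1 was positive and 1 negative in E. By limma on log2(TPM + 1), 5 fell in A, 5 fell in B, 1 rose in C, 1 rose in D, and 0 were positive and 2 negative in E. That scale understates the changes of low genes. By DESeq2, 4 fell in B, 2 rose in D, and 1 was positive and 2 negative in E, and the cause was not tested. With 3 libraries set aside, 7 fell in B, 2 rose in D, and 1 was positive and 1 negative in E. In E, 1 was positive with a coefficient of variation of 0.1 and 1 with library size only.

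With 1 sample left out, the rises in A ranged from 1 to 3 and the falls from 10 to 12. The rises in B ranged from 0 to 1 and the falls from 5 to 12, with 5 without the second KO sample and 6 without the first WT sample with JSH-23. The rises in C ranged from 3 to 5 and the falls from 6 to 11, those in D from 2 to 5 and from 7 to 10, and E from 1 to 2 positive and from 1 to 6 negative. Rises were 3 in A without the second WT sample with vehicle, 1 in B without the second WT sample with JSH-23, 5 in C without the first KO sample with JSH-23 and 2 in D without the second WT sample with JSH-23. In E, 1 was negative without the first KO sample with vehicle, and 2 without the second KO or WT sample with JSH-23 or the first WT sample with vehicle. In B, *Tnc* reversed to 2.25 (adjusted p = 0.636) without the first WT sample with JSH-23, on counts of 0 in the remaining WT sample, and was -6.10 without the first KO sample.

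With the replicate number as a block, 1 rose and 13 fell in A, 0 rose and 11 fell in B, 3 rose and 8 fell in C, 4 rose and 8 fell in D, and 2 were positive and 5 negative in E. Deviations of samples with the same number correlated between -0.0177 and 0.0267 over 8181 genes, so the samples share only a number. Of the counts recomputed, 144 were within 1.5 times the reported value and 46 were not. For single genes 3237 values stayed on their side of the threshold, 106 lost a call, 120 gained one and 1 reversed. Of the values of genes that were not called, 122 changed sign, and 0 of those were called under the alternative. DESeq2 gave no adjusted p for 11 values, 2 of them of genes called by edgeR (*Col6a2* and *Tnc* in B), which are left out.

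The calls made in A that held under each alternative that tested the gene were those of *Col6a3*, *Col16a1*, *Fbln1*, *Ltbp1* and *Vcan* (and of *Thbs1*, which entered the test only through the WT samples in which it was high, so that its difference was fixed by the filter), in B those of *Col16a1*, *Col3a1* and *Vcan*, and in E that of *Col6a3*. In C they were *Spp1*, *Col16a1*, *Col5a1*, *Col6a3*, *Col7a1* and *Loxl2*, and in D *Spp1*, *Col16a1*, *Col5a1*, *Col7a1*, *Lamb1*, *Lamb3* and *Loxl2*. For the 21 genes below 100 counts, depth limits the calls, and each group has 2 samples.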
